A study of Mus musculus with 20 samples.

Results

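The retinas of newborn mice that lack Crx and of those that lack Nrl were compared directly, gene by gene, at postnatal day 2 (P2). The comparison takes every sample labelled Crx-/- or Nrl-/- at P2, which is 4 of the 20 samples of the study, and all 566 genes of the P2 table. Both groups are whole retina of the C57BL/6J strain, with 2 samples per genotype and 2 retinas pooled in each sample, and the labels give no other allele or treatment in either. Wild-type retina of the same strain and age (2 samples) serves as the reference level. CrxRip/+ and CrxRip/Rip, which carry the CrxRip allele of Crx, enter the fit to estimate the spread between samples and are not otherwise described. The labels name no cell-type-specific driver for either null genotype, and pooled whole retina cannot tell fewer cells of a type from less RNA per cell. Nothing in the labels says whether the 2 samples of a genotype came from different litters, so the p values measure only the spread between these samples.

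CRX is a homeodomain protein made in newborn rods and cones, and it activates many of the genes that photoreceptors need for phototransduction and for building the outer segment. NRL is a leucine zipper protein made in rod precursors. It acts with CRX on rod genes and switches on Nr2e3, whose product represses cone genes. In mice without Nrl the precursors that would have become rods develop as cones rich in S-opsin, whereas in mice without Crx rods and cones are born but do not mature. P2 falls in the period when most mouse rods are being generated.

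Values were FPKM, a level per transcript length and per mapped fragment of the library, so that levels of different genes can be set side by side. The table holds a selected set of genes. Each of the 566 genes had passed 3 thresholds together in at least 1 of the authors' comparisons of genotypes, namely 0.05 for their adjusted p, 1 for the size of the log2 fold change and 2 FPKM for the higher mean, and 183 had done so in the authors' deposited comparison of Crx-/- with Nrl-/- (127 higher and 56 lower in Crx-/-). A high share of called genes is therefore built into the table. The Nrl-/- samples were low over the table as a whole, with summed levels of 4300.4 and 4168.3 FPKM against 5456.0 and 5508.0 in Crx-/- and 5449.5 and 5777.3 in wild type, and with median levels of 2.6 FPKM in each Nrl-/- sample against 3.9 in each Crx-/- sample. The part of this low level in the results was not tested. For this reason each difference is given with FPKM as deposited and again after median-of-ratios rescaling, which divides each sample by its median ratio to the geometric mean over the table (0.595 and 0.57 for Nrl-/-, 1.07 and 1.06 for Crx-/-). A difference is the Crx-/- mean minus the Nrl-/- mean on the log2(FPKM + 1) scale, followed by its standard error and by the p value of limma adjusted by Benjamini-Hochberg over the 566 genes. On this scale the change of a gene at low level is understated.

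Most genes of the table were higher in Crx-/- than in Nrl-/- when FPKM were taken as deposited. 339 genes were called higher in Crx-/- (59.9% of the table, adjusted p under 0.05) and 107 were called lower (18.9%), 446 in all (78.8%). The median difference over the 566 genes was 0.57, and rescaling moved it to -0.03. With it the calls moved to 76 higher (13.4%) and 185 lower (32.7%), 261 in all (46.1%). The 2 Crx-/- samples did not overlap with the 2 Nrl-/- samples in 521 genes (92.0%), of which 384 were higher (67.8%) and 137 lower (24.2%) in Crx-/-, so a lack of overlap is the rule in this table and is not used as support. All 76 and all 107 of the smaller counts were called the same way with both scalings, so 183 genes (32.3%) had a direction that did not depend on the choice between them. Rescaling lowered the differences over the table, so this full agreement is in large part fixed in advance. In effect the 76 are the genes called higher after rescaling and the 107 those called lower as deposited. The differences of the other 263 genes called higher as deposited had a median of 0.73, close to the shift of the table as a whole. Those 263 genes had a median of -0.21 in Crx-/- minus wild type and of -0.91 in Nrl-/- minus wild type. Direction with both scalings is used below to say that a gene was higher or lower.

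**Figure D1:**
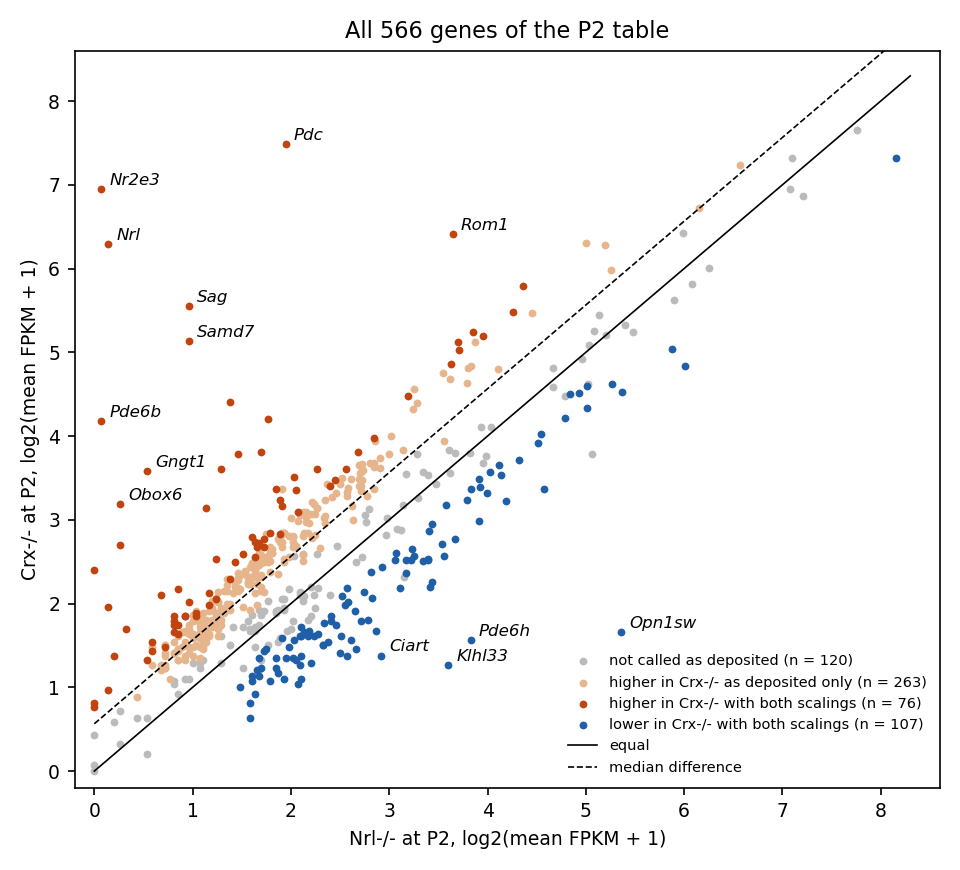
Mean level of each of the 566 genes in Nrl-/- (horizontal axis) and Crx-/- (vertical axis) at P2, as log2(mean FPKM + 1), 2 samples per genotype. The bulk of the points lies along the dashed line of the median difference of 0.57, above the solid line of equal level. Nr2e3, Nrl, Pdc and Sag stand far above both lines and Opn1sw far below.

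The position of wild type was read from FPKM as deposited, in which the Nrl-/- samples were low over the table. Over all 566 genes the wild-type mean lay above both mutants in 325, between them in 131 and below both in 110. The medians over all genes were -0.14 in Crx-/- minus wild type and -0.76 in Nrl-/- minus wild type. Among the 76 higher genes the wild-type mean lay above both mutants in 49, between them in 27 and below both in 0, with a median of -0.08 in Crx-/- minus wild type and of -1.22 in Nrl-/- minus wild type. Among the 107 lower genes it lay above both in 13, between them in 48 and below both in 46, with medians of -0.07 and 0.62. These 3 contrasts share samples, and both sets were chosen by the difference between the mutants, which in part fixes where wild type falls. The values are given side by side as a description.

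Nr2e3 and Nrl, the deleted gene itself, had the largest differences of the table. Nrl itself was at 73.0 and 81.6 FPKM in Crx-/- and at 0.1 in each Nrl-/- sample, against 69.4 and 81.0 in wild type. The Nrl-/- samples thus matched their label, whereas Crx itself was not analysed here and the Crx-/- label has no such check. Nrl in Crx-/- was not called different from wild type (difference from wild type 0.04 ± 0.14 SE, adjusted p = 0.823, limma). Nr2e3, which encodes the nuclear receptor that represses cone genes in rods, was at 112.4 and 133.2 FPKM in Crx-/-, 0.1 and 0.0 in Nrl-/- and 120.3 and 143.8 in wild type. Its difference of 6.88 ± 0.17 (adjusted p = 3.81e-08, limma) was 6.74 after rescaling. Samd7, a photoreceptor protein that takes part in silencing of nonrod genes, was at 29.3 and 38.9 FPKM in Crx-/- and 1.1 and 0.8 in Nrl-/- (4.16 ± 0.17, adjusted p = 1.04e-06, limma). Wild type was at 20.7 and 27.0, below both Crx-/- samples, but the difference between Crx-/- and wild type missed the threshold as deposited (0.50, adjusted p = 0.0583, limma) and passed it after rescaling (0.68, adjusted p = 0.0236, limma).

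Of 21 listed photoreceptor transcription factors and cofactors 7 were in the table. Nr2e3, Nrl and Samd7 were higher and 2 were lower in Crx-/- with both scalings, against 13.4% and 18.9% of the whole table. Nrl is the deleted gene, so its call follows from the genotype. Ankrd33 encodes a cofactor that restrains CRX target genes. It was at 1.2 and 1.1 FPKM in Crx-/-, 3.2 and 3.4 in Nrl-/- and 4.3 and 4.1 in wild type, a difference of -1.0 ± 0.09 (adjusted p = 5.49e-05, limma). Sall3, which encodes a zinc finger protein found in cones and horizontal cells, was at 1.4 and 2.1 FPKM in Crx-/-, 4.8 and 5.9 in Nrl-/- and 1.2 in each wild-type sample (-1.21 ± 0.14, adjusted p = 1.69e-04, limma). In this gene Crx-/- lay near wild type and the Nrl-/- samples stood above both. The nuclear receptors of cone opsin patterning gave no direction that held with both scalings. Thrb was at 3.2 and 3.9 FPKM in Crx-/- and 3.8 and 3.9 in Nrl-/-, both under the 5.8 and 5.7 of wild type. Thrb in Nrl-/- minus wild type was -0.48 as deposited and 0.41 after rescaling (adjusted p = 0.0095 after rescaling, limma). Its difference between the mutants of -0.10 had a 95% interval from -0.30 to 0.11 as deposited but became -0.82 after rescaling. Rxrg was higher in Crx-/- as deposited (0.37, adjusted p = 0.0154, limma) and lower after rescaling (-0.39, adjusted p = 0.0119, limma).

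Rod genes were mostly higher in Crx-/- than in Nrl-/-. Of 19 listed rod genes 8 were in the table, and 7 were higher in Crx-/- with both scalings, against 13.4% of the whole table. The median difference of the 8 was 1.86, against 0.57 over all genes, and 1.36 after rescaling. Summed over the 8 genes the level was 181.5 and 225.1 FPKM in wild type, 171.3 and 197.6 in Crx-/- and 41.1 and 40.6 in Nrl-/-.

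Within the rod genes the Crx-/- samples split into genes near wild type and genes well below it. Sag encodes the rod arrestin, which ends the light response, and it was at 44.6 and 47.2 FPKM in Crx-/-, 1.1 and 0.8 in Nrl-/- and 46.4 and 56.8 in wild type (4.59 ± 0.22, adjusted p = 1.98e-06, limma). Pde6b, a catalytic subunit of the rod phosphodiesterase, was at 15 and 19.1 FPKM in Crx-/- and at 0.1 and 0.0 in Nrl-/-, against 14.4 and 17.7 in wild type (4.10 ± 0.18, adjusted p = 1.33e-06, limma). Gngt1, the gamma subunit of rod transducin, was at 9.8 and 12.2 FPKM in Crx-/-, 0.4 and 0.5 in Nrl-/- and 11.0 and 13.9 in wild type (3.04 ± 0.20, adjusted p = 1.29e-05, limma). Rom1, a structural protein of the disc rim, was at 78.0 and 90.3 FPKM in Crx-/-, 12.3 and 10.7 in Nrl-/- and 65.9 and 81.6 in wild type (2.77, or 1.95 after rescaling). In these 4 genes no fall from wild type was called in Crx-/-.

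Cnga1, Nxnl1 and Reep6 formed the other group, in which Crx-/- lay between wild type and Nrl-/-. Cnga1, the alpha subunit of the rod light-gated channel, was at 0.6 and 0.9 FPKM in Crx-/- and listed at 0 in both Nrl-/- samples, against 3.1 and 6.2 in wild type (adjusted p = 0.0145 for Crx-/- against Nrl-/-, limma). Nxnl1, which encodes the rod-derived cone viability factor, was at 0.7 and 1.2 FPKM in Crx-/- and 0.1 in each Nrl-/- sample (wild type 4.3 and 3.3). Reep6, a trafficking protein of rods, was at 3.1 and 3.6 FPKM in Crx-/- and 1.3 and 1.2 in Nrl-/- (wild type 6.1 and 6.8). The eighth gene, Pde6g, encodes the inhibitory subunit of the rod phosphodiesterase and did not follow either group. It was at 19.5 and 23.1 FPKM in Crx-/- and 25.8 and 27.3 in Nrl-/-, with wild type at 30.3 and 38.8. Its difference of -0.31 was not called as deposited (95% interval -0.73 to 0.11) and was called lower after rescaling (-1.15, adjusted p = 0.00114, limma).

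**Figure D2:**
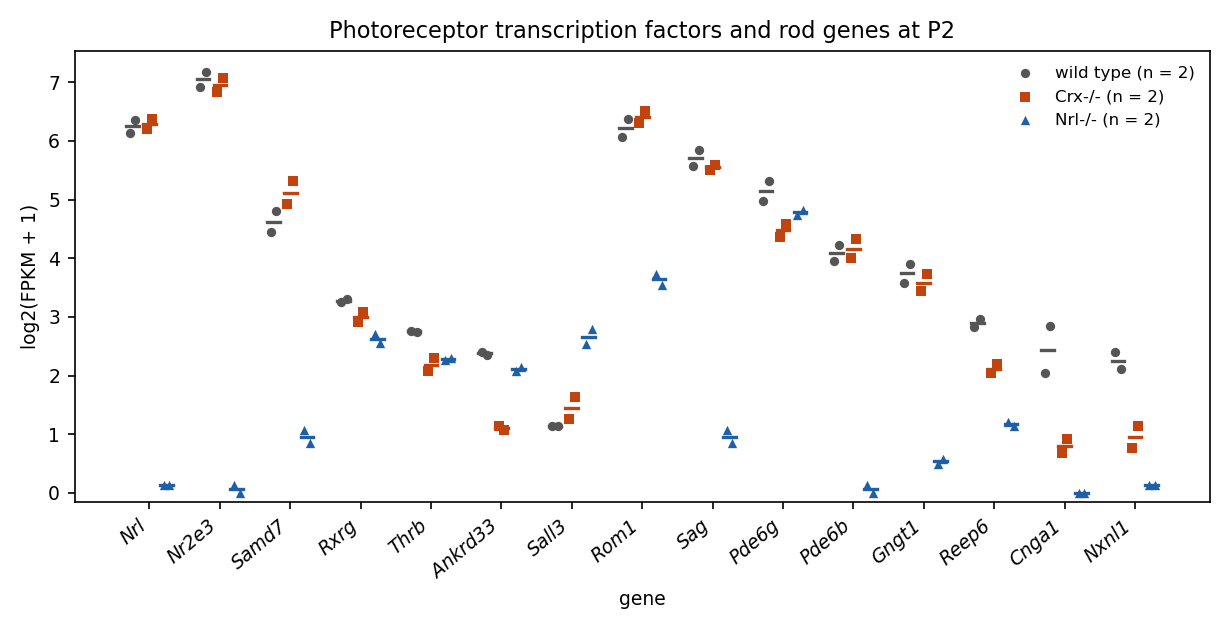
Level of 7 photoreceptor transcription factors and cofactors and of 8 rod genes in each P2 sample, as log2(FPKM + 1), with bars at the mean of the 2 samples of each genotype. In Nrl, Nr2e3, Samd7, Rom1, Sag, Pde6b and Gngt1 the Crx-/- samples lie with or near wild type and the Nrl-/- samples far below. In Reep6, Cnga1 and Nxnl1 they lie between.

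Promoters of 2 rod genes and of 2 cone genes are shown because rod and cone genes moved apart between the genotypes. They are the 250 bases before a RefSeq start site on GRCm38.p6, written 5′ to 3′ on the strand of the gene, and were chosen after the matches were seen. The Sag and Gnat2 windows lie inside the span of the gene, which begins at chr1:87798143 and chr3:108086788. Capitals mark TAATCC, the core bound by CRX and related homeodomain proteins, and TGCTGA, part of the element bound by NRL and related proteins. Both strands were searched, so that the reverse complements GGATTA and TCAGCA are also in capitals.
Sag, chr1:87803430-87803679, plus strand: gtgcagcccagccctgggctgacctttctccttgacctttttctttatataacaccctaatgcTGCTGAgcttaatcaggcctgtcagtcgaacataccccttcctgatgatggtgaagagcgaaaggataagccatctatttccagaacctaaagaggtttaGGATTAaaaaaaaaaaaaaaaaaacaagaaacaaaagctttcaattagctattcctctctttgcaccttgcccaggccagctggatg
Pde6b, chr5:108388123-108388372, plus strand: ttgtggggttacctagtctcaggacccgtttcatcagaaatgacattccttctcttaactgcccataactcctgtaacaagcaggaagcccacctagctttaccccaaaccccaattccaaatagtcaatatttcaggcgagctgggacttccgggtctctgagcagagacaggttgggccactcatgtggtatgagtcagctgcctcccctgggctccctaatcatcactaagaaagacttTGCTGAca
Opn1sw, chr6:29380514-29380763, minus strand: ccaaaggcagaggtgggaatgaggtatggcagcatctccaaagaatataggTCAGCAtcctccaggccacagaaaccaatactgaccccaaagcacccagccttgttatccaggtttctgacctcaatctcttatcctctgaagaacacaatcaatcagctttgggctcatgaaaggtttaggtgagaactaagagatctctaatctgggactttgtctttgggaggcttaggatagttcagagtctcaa
Gnat2, chr3:108092816-108093065, plus strand: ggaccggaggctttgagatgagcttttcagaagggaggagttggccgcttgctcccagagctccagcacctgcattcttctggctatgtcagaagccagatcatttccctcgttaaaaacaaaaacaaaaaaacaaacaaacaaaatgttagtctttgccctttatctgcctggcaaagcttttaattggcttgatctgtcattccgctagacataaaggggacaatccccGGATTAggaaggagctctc
Sag has TAATCC on the minus strand, 87 bases before the start, and TGCTGA on the plus strand, 187 bases before it. Pde6b has TGCTGA beginning 8 bases before the start. Of the cone pair, Opn1sw has TGCTGA on the strand opposite to the gene 199 bases before the start, and Gnat2 has TAATCC on the opposite strand 19 bases before it. Over windows of 300 bases (50 of them after the start) a promoter was matched by symbol for 442 of the 566 genes. TAATCC was in 7.16% of the 27025 promoters of all genes, in 10.9% of the 442, in 8 of the 56 matched genes higher in Crx-/- and in 11 of the 86 lower. TGCTGA was in 19.1% of all promoters, in 19.2% of the 442, in 6 of the 56 and in 17 of the 86. The search of these short strings is a description of the letters and was not tested.

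Cone genes went the other way, and the 2 genotypes differed in which of them stood apart from wild type. Of 20 listed cone genes 11 were in the table. With both scalings 0 were higher and 6 were lower in Crx-/- (13.4% and 18.9% of the whole table), and after rescaling all 11 were called lower (32.7%). Their median difference was -0.56, or -1.30 after rescaling. The summed level of the 11 was 377.2 and 447.9 FPKM in Crx-/-, which overlaps the 400.3 and 444.8 of wild type, and 539.4 and 536.5 in Nrl-/-, above both.

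Opn1sw and Pde6h were the cone genes with the largest differences. Opn1sw encodes S-opsin, the short-wavelength cone pigment, and was at 1.8 and 2.5 FPKM in Crx-/-, 39.5 and 40.5 in Nrl-/- and 40.6 and 43.0 in wild type (-3.71 ± 0.11, adjusted p = 1.21e-07, limma). At P2 the deficit was thus in Crx-/-, while Nrl-/- was not called different from wild type as deposited (-0.06, adjusted p = 0.607, limma) and was higher after rescaling (0.98, adjusted p = 8.43e-05, limma). Pde6h, whose product inhibits the phosphodiesterase of cones, was at 1.7 and 2.2 FPKM in Crx-/-, 14.3 and 12.2 in Nrl-/- and 7.0 and 8.6 in wild type (-2.27 ± 0.12, adjusted p = 4.31e-06, limma). In Pde6h the 2 mutants lay on opposite sides of wild type. Gnat2, the alpha subunit of cone transducin, was at 6.7 and 7.2 FPKM in Crx-/-, 13.5 and 14.6 in Nrl-/- and 10.2 and 11.7 in wild type (-0.92 ± 0.12, adjusted p = 2.95e-04, limma), and so it was also on opposite sides.

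For 2 further cone genes Crx-/- was at or above wild type and Nrl-/- was higher still. Pde6c, the catalytic subunit of the cone phosphodiesterase, was at 3.2 and 3.9 FPKM in Crx-/-, 7.1 and 8.2 in Nrl-/- and 2.1 and 2.3 in wild type, a difference of -0.93. Cnga3, the alpha subunit of the cone channel, was at 3.0 and 3.1 FPKM in Crx-/- as in wild type and at 4.3 and 5.7 in Nrl-/- (-0.56). Otop3, a proton channel gene of the cone list, resembled Opn1sw in that, as deposited, Crx-/- was low (5.3 and 6.3 FPKM) and Nrl-/- (11.9 and 11.5) was near wild type (10 and 10.8). After rescaling Otop3 in Nrl-/- was above wild type (1.14, adjusted p = 7.17e-05, limma). The remaining 5 were not called as deposited. They include the most abundant of the list, Gngt2, the gamma subunit of cone transducin, at 178.9 and 220.5 FPKM in Crx-/- and 216.7 and 214.4 in Nrl-/- (-0.12, 95% interval -0.52 to 0.28). Gnb3, the beta subunit of cone transducin, was at 109.2 and 122.4 FPKM in Crx-/- and 152.0 and 142.3 in Nrl-/- (-0.34, adjusted p = 0.0675, limma), and Ccdc136, Cngb3 and Pgam2 had differences of -0.24, 0.32 and 0.03. The last 2 of these changed sign after rescaling, to -0.45 and -0.64.

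**Figure D3:**
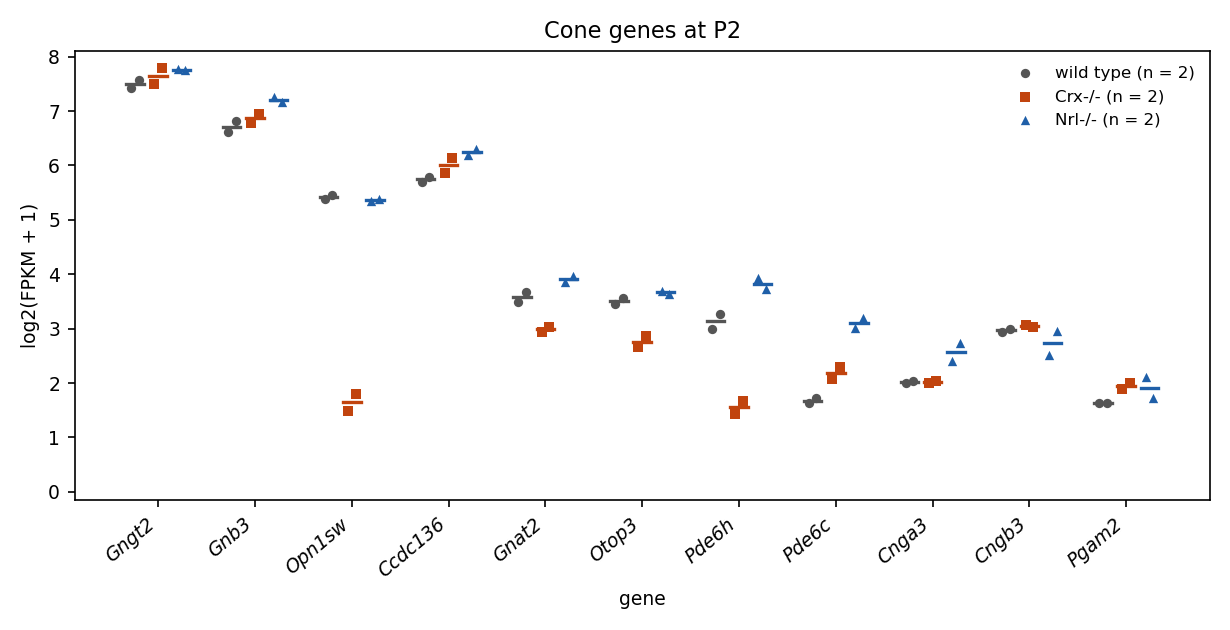
Level of the 11 cone genes of the table in each P2 sample, as log2(FPKM + 1), with bars at the mean of the 2 samples of each genotype. Crx-/- is lowest in Opn1sw, Gnat2, Otop3 and Pde6h, Nrl-/- is highest in Pde6c and Cnga3, and the genotypes lie close together in Gngt2, Cngb3 and Pgam2.

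The ratio of a rod gene to its cone counterpart does not depend on the scaling of a sample, apart from the added constant of 1 FPKM. For the phosphodiesterase catalytic subunits, Pde6b over Pde6c, the log2 ratio was 2.31 and 2.50 in wild type, 1.93 and 2.04 in Crx-/- and -2.88 and -3.20 in Nrl-/-. The rod gene thus exceeded the cone gene in wild type and Crx-/- and fell short of it in Nrl-/-. Pde6g over Pde6h, the inhibitory subunits, gave another order, with 2.92 and 2.91 in Crx-/-, 1.97 and 2.05 in wild type and 0.81 and 1.1 in Nrl-/-. The mutants lay on opposite sides of wild type in this pair, in which Pde6h was low in Crx-/- and high in Nrl-/-. In all 4 pairs both Crx-/- samples lay above both Nrl-/- samples. The ratios are given as a description, and their differences were not tested.

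**Figure D4:**
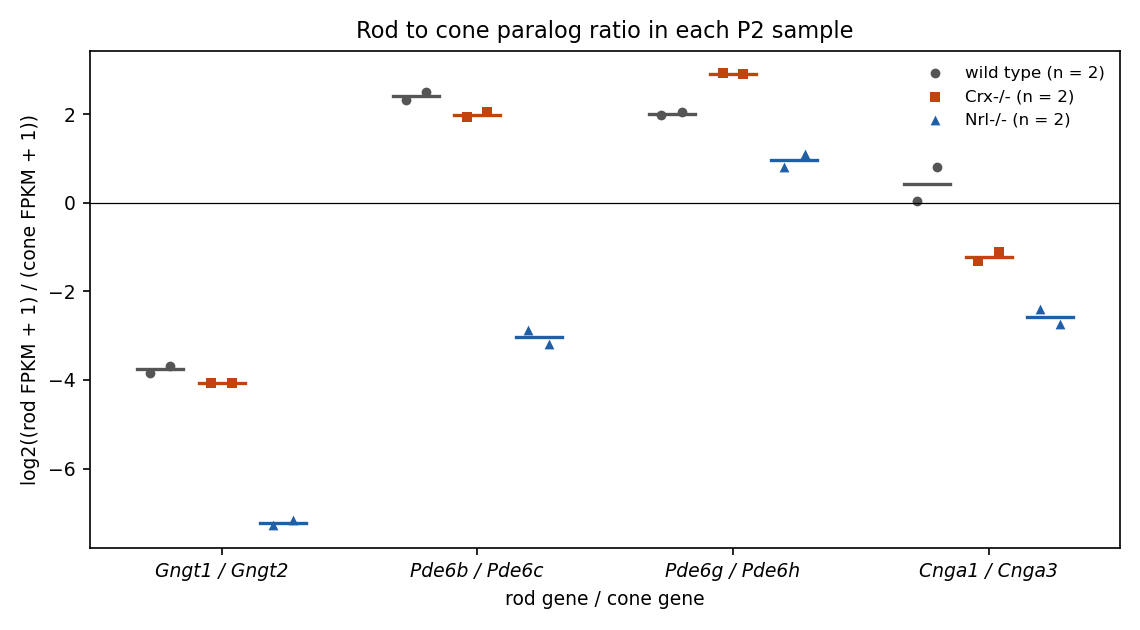
Log2 ratio of a rod gene to the cone gene for the same kind of protein in each P2 sample, with 1 FPKM added to each level and bars at the mean of the 2 samples. Nrl-/- is lowest in every pair, while Crx-/- lies above wild type for Pde6g over Pde6h and below it for the other 3 pairs.

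Genes used by rods and cones alike had no common direction that held with both scalings. Of 44 listed genes 19 were in the table, with 2 higher and 5 lower in Crx-/- by both scalings, against 13.4% and 18.9% of the whole table. As deposited 8 were higher and 5 lower, beside 59.9% and 18.9% of the whole table. After rescaling 2 were higher and 10 lower, beside 13.4% and 32.7%. In 15 of the 19 the wild-type mean was above both mutants by FPKM as deposited, against 325 of the 566 genes of the whole table. Pdc encodes phosducin, which binds the beta and gamma subunits of transducin, and was at 163.4 and 191.9 FPKM in Crx-/-, 2.8 and 2.9 in Nrl-/- and 129.4 and 155.5 in wild type (5.53 ± 0.17, adjusted p = 1.32e-07, limma). The other higher gene was Rp1, a microtubule protein of the outer segment axoneme, at 11.5 and 14.5 FPKM in Crx-/- and 1.9 and 2.6 in Nrl-/- (2.11, or 1.44 after rescaling). Prph2, the partner of Rom1 in the disc rim, was higher in Crx-/- only as deposited (29.7 and 37.8 against 14.2 and 12.9 FPKM, difference 1.25, adjusted p = 5.48e-04, limma), and its rescaled difference of 0.42 was not called. Cdhr1, a cadherin at the base of the outer segment, had its highest level in Nrl-/-, at 58.2 and 68.4 FPKM, with 24.4 and 30.8 in Crx-/- and 38.8 and 44.7 in wild type (-1.17). Mpp4, a scaffold protein of the photoreceptor synapse, was at 1.5 and 1.7 FPKM in Crx-/- and 5.0 and 4.9 in Nrl-/- (-1.20), against 6.1 and 6.4 in wild type. The calcium sensors Rcvrn (recoverin) and Guca1a and the thioredoxin-like gene Nxnl2 made up the 5 lower genes, with differences of -0.75, -0.78 and -0.44.

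Several of the largest differences fell outside the photoreceptor lists. Obox6, a homeobox gene otherwise known from oocytes, was at 7.8 and 8.4 FPKM in Crx-/- and at 0.3 and 0.1 in Nrl-/-, with 0.3 in each wild-type sample (2.93 ± 0.13, adjusted p = 1.33e-06, limma). It is a close neighbour of Crx in the genome, and of the 15 genes of the table within 10 Mb of Crx 3 were higher and 4 lower in Crx-/- with both scalings, against 13.4% and 18.9% of the whole table. The 4 lower include Slc1a5 and Cabp5, at 0.9 and 2.46 Mb from Crx, which are described below. Klhl33 was at 1.6 and 1.2 FPKM in Crx-/- and 10.1 and 12.2 in Nrl-/-, while its wild-type samples disagreed, at 5.7 and 1.1 (-2.34 ± 0.65, adjusted p = 0.0103, limma). Klhl33 lies within 10 Mb of Nrl, as do Pnp, the purine nucleoside phosphorylase gene (-1.22), Ebpl (3.03) and Cpne6, which adjoins Nrl (-0.82). Of the 14 genes of that window 6 were higher and 3 lower with both scalings, beside the same 13.4% and 18.9%. Whether sequence carried along with either targeted allele has a part in these values was not tested, and the window was chosen after the values were seen. Pnp has a near-identical copy beside it, so its reads may be shared with that copy. Plekha2 (2.43) and Lrp4 (2.42) completed, with the genes above, the 12 largest differences toward Crx-/- among genes at a mean of at least 5 FPKM, and Lrp4, a receptor of the LDL receptor family, was at 15.5 and 19.2 FPKM in Crx-/-, 2.4 in each Nrl-/- sample and 17.3 and 17.8 in wild type.

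Toward Nrl-/- the list of large differences held genes of several functions. Ciart, a repressor within the circadian clock, was at 1.5 and 1.7 FPKM in Crx-/- and 6.7 and 6.4 in Nrl-/-, with wild type at 1.3 and 1.2 (-1.54 ± 0.08, adjusted p = 4.12e-06, limma). Per2, a clock repressor, was at 1.9 and 2.0 FPKM in Crx-/-, 4.7 and 5.5 in Nrl-/- and 1.9 in each wild-type sample (-1.05). In both clock genes the Crx-/- samples lay far nearer to wild type than the Nrl-/- samples did. The glutamine transporter gene Slc1a5 was low in Crx-/- as deposited, at 2.3 and 2.1 FPKM, with 6.7 and 5.9 in Nrl-/- and 5.9 and 5.0 in wild type (-1.19). After rescaling Slc1a5 was below wild type in Crx-/- (-0.84) and above it in Nrl-/- (1.11, adjusted p = 2.92e-05, limma). The serine protease gene Htra1 (-1.21), the neuronal pentraxin gene Nptx1 (-1.17) and Arrdc4 (-0.98) were also lower in Crx-/-.

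Genes of other retinal cells gave few rows. No listed horizontal cell, Müller glia, microglia or lens gene was in the table, so those cell types could not be compared, and ganglion cells had 1 gene (Pou4f3, not called with both scalings). Of 25 listed bipolar genes 5 were in the table and 3 were lower in Crx-/- with both scalings, against 18.9% of the whole table. Lhx4, a homeobox gene also made in cone precursors, was at 13.2 and 15 FPKM in Crx-/-, 20.9 and 22.9 in Nrl-/- and 8.2 and 8.8 in wild type (-0.60), so that both mutants exceeded wild type (adjusted p = 0.00279 for Crx-/- and 2.61e-05 for Nrl-/-, limma). Pcp2 showed the same order, at 2.3 and 2.7, 6.5 and 5.3, and 1.4 and 1.9 FPKM (-0.98). Cabp5, which lies within 10 Mb of Crx, was low in Crx-/- (1.4 and 1.1 FPKM), at 2.6 and 2.7 in Nrl-/- and 3.6 and 3.1 in wild type (-0.70). The immediate early genes Egr1, Nr4a2, Jun and Btg2 respond to activity and handling. All 4 were higher in Crx-/- as deposited (median 0.75), against 59.9% of the whole table (median 0.57). After rescaling 0 were higher (median 0.14), against 13.4% of the whole table (median -0.03). The progenitor genes Fgf15 and Btg2 likewise were called higher only as deposited, beside the same shares of the whole table. Of 5 gliosis and stress genes only the metallothionein genes Mt1 (-0.72) and Mt2 (-1.09), which encode zinc-binding proteins, were lower in Crx-/- with both scalings, against 18.9% of the whole table.

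Some genes were far from wild type on the same side in both mutants, by FPKM as deposited, in which the Nrl-/- samples were low. In 23 genes each mutant was at least 1 from wild type on the log2 scale and on the same side, below it in 18. Of the 23, 4 were called between the mutants with both scalings, against 32.3% of the whole table. That share depends in part on choosing genes on the same side of wild type. The 8 named here had the smallest differences between the mutants after rescaling among the 23, so their small differences follow from that choice. Slc7a11, a cystine transporter, was at 0.6 and 0.5 FPKM in Crx-/- and 0.5 and 0.4 in Nrl-/-, against 3.8 and 3.2 in wild type, and the mutants differed by 0.10 (95% interval -0.13 to 0.32). Rdh12, a retinol dehydrogenase of photoreceptors, was at 0.5 and 0.6, 0.3 and 0.4, and 2.7 and 2.9 FPKM in the same order (0.20, 95% interval -0.05 to 0.45). Kcnv2, a photoreceptor potassium channel subunit, was at 1.8 and 2.4 FPKM in Crx-/-, 1.2 and 1.3 in Nrl-/- and 5.5 and 6.8 in wild type. Its difference of 0.46 was called as deposited (adjusted p = 0.0147, limma) and was -0.09 and not called after rescaling. Hddc3 was at 10.3 and 8.8, 5.9 and 5.2, and 19.9 and 22.9 FPKM (0.69, and -0.08 after rescaling), and Mmp2, Klk1b22, Ano3 and Eno1b also met the criterion. The last 3 of these rested on a single high wild-type sample, with wild-type values of 0.0 and 22.5, 4.5 and 0.2, and 25.6 and 0.3 FPKM.

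At postnatal day 21 (P21) the same genotypes were sampled from other mice, and 198 of the 566 genes were also in the P21 table of 1497 genes. The ages were normalised and selected separately, and no test was made between them. Of the 198 genes 46 were called higher (23.2%) and 100 lower (50.5%) in Crx-/- than in Nrl-/- at P21, 73.7% in all, while over the whole P21 table the shares were 25.7% higher and 39.4% lower, 65.1% in all. The genes lower in Crx-/- at P2 were mostly lower at P21: of the 52 that both tables hold, 49 were called lower and 3 higher at P21, with a median of -1.39. Of the genes higher at P2 35 were in both tables, and 21 were called higher and 5 lower at P21, with a median of 0.53.

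Individual genes took different courses. Opn1sw stood at -3.71 at P2 and at -9.34 at P21, with 2.7 FPKM in each Crx-/- sample and 2501.0 and 2298.6 in Nrl-/-. Nr2e3 (6.71), Nrl (6.16) and Pde6b (3.43) kept large differences toward Crx-/-. Sag and Gngt1 did not. Sag was at 440.6 and 379.8 FPKM in Crx-/- and 687.4 and 753.0 in Nrl-/- at P21 (-0.81, adjusted p = 2.66e-04, limma), although it had been near 0 in Nrl-/- at P2. For Gngt1 the P21 levels were 146.6 and 128.7 FPKM in Crx-/- and 231.7 and 226.6 in Nrl-/- (-0.73, adjusted p = 6.38e-04, limma). Pdc, the third largest difference at P2, was at 764.0 and 665.6 FPKM in Crx-/- and 495.3 and 580.1 in Nrl-/- at P21 (0.41, adjusted p = 0.0432, limma).

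**Figure D5:**
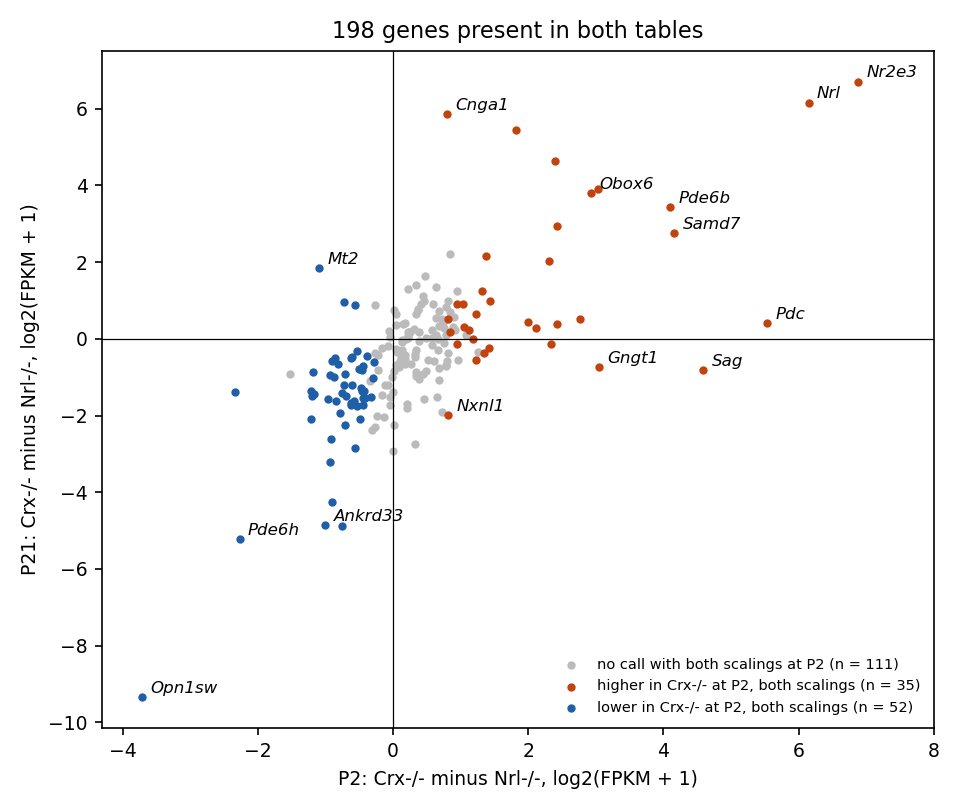
Crx-/- minus Nrl-/- on the log2(FPKM + 1) scale at P2 (horizontal axis) and at P21 (vertical axis) for the 198 genes in both tables, each point from 2 samples per genotype and age. Nearly all genes lower in Crx-/- at P2 lie below 0 at P21 (49 of 52), whereas the genes higher at P2 spread from Nr2e3 at 6.71 to Nxnl1 at -1.98.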

How the data were processed

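RNA sequencing of whole retina was compared at P2, with P21 beside it. Libraries were made strand-specific from total RNA, per the labels' protocols. Each sample column holds FPKM, per the file headers, which the authors gave to 1 decimal. The authors' deposited comparison columns hold adjusted p-values and fold changes on a log2 scale, and DESeq is named in the submitters' processing notes with no version. For the aligner, the counter and the build, nothing is given in the sources used here. Read depth is unknown, so no counting intervals were computed. Groups come from the sample titles.

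limma 3.58.1 (R 4.3.3) was fitted to log2(FPKM + 1) of all 10 samples of an age, with 1 term per genotype and a variance trend. There were 5 residual and 2.95 prior degrees of freedom at P2 (5 and 3.06 at P21), and 0 of the genes were filtered out. Two-sided p values were adjusted over the genes of the table (Benjamini-Hochberg). In simulated data of the P2 size the fit recovered 94% of genes changed by 1 on the log2 scale and 70.1% of those changed by 0.5. Transcripts were matched to RefSeq genes for 563 of 566 genes, and current symbols were used for 34 (Gm129 is Ciart, Hist1h1c is H1f2). Promoters are from RefSeq, GRCm38.p6.

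The genes, the 23 gene lists and the rules were chosen with earlier results of these data known. Named genes are the photoreceptor transcription factors, the 12 largest differences each way called with both scalings at a mean of at least 5 FPKM and with separated samples, up to 4 called and 2 uncalled members per list, rod and cone pairs, and 8 genes far from wild type on the same side in both mutants. These 8 were those with the smallest difference between the mutants after rescaling. The 73 genes this gives were not all described, and 2 listed genes are not reported here and were left out of the lists. A further 21, among them Nxnl1, Reep6, Otop3, Ccdc136, Cngb3, Pgam2, Rcvrn, Guca1a, Nxnl2, Cpne6, Per1, Slc30a1, Gje1, Pcare, Col16a1, Ezh2 and Lmo2, were chosen after their values were seen.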

Additional observations from a re-analysis of the deposited data

Results flagged for a closer look

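Of the named genes, 5 were called in opposite directions at P2 and P21 with both scalings at each age and with samples that did not overlap, and the difference between the ages was not tested. Over all genes of both tables, 5 of those higher in Crx-/- at P2 with both scalings were called lower at P21 and 3 of those lower were called higher, and among the genes higher at P2 as deposited 24 were called lower at P21. Sag stood at 4.59 (Crx-/- minus Nrl-/-, log2) at P2 and at -0.81 at P21, and Gngt1 at 3.04 and -0.73. In Nrl-/- the level of Sag was 1.1 and 0.8 FPKM at P2 and 687.4 and 753.0 at P21. Nxnl1 stood at 0.81 at P2 and at -1.98 at P21, where it was at 4.7 and 4.5 FPKM in Crx-/- and 21.8 and 20.4 in Nrl-/-. Mt2 stood at -1.09 and 1.84, and Mt1 at -0.72 and 0.95. At P2 the metallothionein genes were highest in Nrl-/- (Mt2 at 4.5 and 4.8 FPKM, against 1.5 and 1.8 in Crx-/-). At P21 they were highest in Crx-/- (Mt2 at 51.4 and 35.8 FPKM, against 11.5 and 11.1 in Nrl-/-).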

How the results depend on the processing

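Scaling decided the balance of calls at P2. The 446 calls as deposited became 261 (76 higher, 185 lower) after median-of-ratios rescaling, and were 424 with equal summed FPKM and 453 with the scaling implied by the authors' fold changes, an alternative chosen after seeing the data. The median difference over the genes was 0.57 as deposited and -0.03 after median-of-ratios rescaling. It was 0.32 with equal summed FPKM and 0.46 with the authors' scaling, which thus lay nearer to FPKM as deposited. The other settings gave 443 to 474 calls: a pseudocount of 0.1 or 0.5, a mean of at least 1 FPKM, fewer genotypes in the fit and no variance trend. Leaving out a sample gave 403 to 421, with the lone sample of its genotype assumed to vary like the other groups. At P21 the 198 genes gave 142 to 148 calls under other settings and 128 to 139 without a sample. The difference between replicates 1 and 2 had a correlation over genes of 0.026 between Crx-/- and Nrl-/- at P2 and of 0.029 at P21. Over the other pairs of genotypes in the fit it ran from -0.243 to 0.332 at P2 and from -0.299 to 0.235 at P21. Whether samples of the same number share a step was not tested. With a replicate block 459 genes were called at P2 and 146 of the 198 at P21.

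Rescaling reversed Rxrg (-0.39), Rgs9 (-0.69), Trpm1 (-0.17), Hmox1 (-0.36), Gfap (-0.44), Fgf15 (-0.15), Tyrp1 (-0.40), Rgs5 (-0.38), Jun (-0.01), Rps19 (-0.41), Rdh12 (-0.08), Hddc3 (-0.08), Kcnv2 (-0.09), Ano3 (-0.12), Slc7a11 (-0.22), Cngb3 (-0.45), Pgam2 (-0.64) and Lrit1 (-0.35). Equal sums reversed Rgs9 (-0.21), Tyrp1 (-0.02), Rgs5 (-0.01), Ano3 (-0.01), Slc7a11 (-0.03), Cngb3 (-0.01), Pgam2 (-0.25) and Lrit1 (-0.04), and the authors' scaling Rgs9 (-0.01) and Pgam2 (-0.09). Leaving out 1 sample reversed 6 genes and brought Ano3 to 0, and the differences ranged from -0.21 to 0.01 for Thrb, -0.27 to 0.03 for Gngt2, -0.20 to 0.88 for Gfap (-0.10 without Nrl-/- replicate 1), -0.01 to 0.51 for Rgs5, -0.72 to 0.58 for Hbb-bs (0.11 without Nrl-/- replicate 2), 0.00 to 0.12 for Ano3 and -0.16 to 0.22 for Pgam2 (-0.03 without Crx-/- replicate 2). The genes reversed by rescaling all had positive differences as deposited, and rescaling lowered the differences over the table. The cause of the low level of the Nrl-/- samples, and that of the reversals without 1 sample, was not tested. The table is selected on differences in these samples, which weakens any rescaling that takes most genes as unchanged, and values below 1 FPKM are limited by rounding.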

Other observations

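Some further genes separated the mutants, and they were chosen after their values were seen. Gje1, a connexin gene, was at 4.1 and 4.5 FPKM in Crx-/- and listed at 0 in both Nrl-/- samples at P2, with wild type at 1.1 and 1.5. At P21 it was at 27.3 and 22.8 FPKM in Crx-/- and at most 0.1 in Nrl-/- and wild type. Pcare, a gene of the photoreceptor outer segment, was at 6.9 and 8.7 FPKM in Crx-/-, 1.2 in each Nrl-/- sample and 4.4 and 5.7 in wild type (1.99). Col16a1, a collagen gene, was at 2.1 and 2.4 FPKM in Crx-/- and 0.2 and 0.3 in Nrl-/-, with 0.7 and 0.6 in wild type (1.38). In all 3 the Crx-/- level was also above wild type (adjusted p = 0.0101, 0.0301 and 5.68e-04, limma).

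The linker histone gene H1f2 was at 34.4 and 33.0 FPKM in Crx-/- and 12.1 and 11.9 in Nrl-/-, with wild type at 35.3 and 34.5, and Ezh2, the catalytic subunit of a Polycomb complex, was at 38.8 and 35.0 against 13.6 and 13.2. Their differences of 1.42 and 1.39 were called with both scalings (0.59 and 0.57 after rescaling). Lmo2 rose in both mutants, to 4.9 and 4.7 FPKM in Crx-/- and 9.9 and 9.1 in Nrl-/- from 2.0 in each wild-type sample. Slc30a1, a zinc exporter gene, was at 5.1 and 6.0 FPKM in Crx-/- and 9.9 and 11.2 in Nrl-/- (-0.82), and the clock gene Per1 was at 3.1 and 3.7 against 6.1 and 5.3 (-0.61).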
